A study of Mus musculus with 9 samples.

Results

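The ATF4 amino acid response genes described here are 10 genes, Gtpbp2, Atf4, Atf5, Trib3, Asns, Chac1, Sesn2, Psat1, Phgdh and Slc7a11, taken by symbol from the 54532 genes of the deposited count table. They were measured in bulk prostate RNA from 9 libraries: Srd5a2 heterozygous (Het), Srd5a2-null (KO) and wild-type (WT) mice, 3 libraries each. Srd5a2 encodes the type II 5-alpha-reductase, which converts testosterone to dihydrotestosterone. Het males had been crossed with WT C57BL6 females, and the null males came from the third generation. The labels describe null animals rather than a deletion in 1 cell type, and name no age, prostate lobe or further treatment. Nor do they tie each library to its own animal, so a p-value here reflects only variation among the libraries, part of which may be technical. The list was chosen with earlier results in view, in particular the level of Gtpbp2 in Het against WT. All values of the members in that comparison are therefore a description.

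ATF4 is a bZIP transcription factor made when stress kinases, GCN2 for amino acid shortage and PERK for the endoplasmic reticulum, phosphorylate the translation factor eIF2alpha. Its production is set mainly at translation, so its mRNA is not a measure of its activity. ATF4 pairs with C/EBP family proteins at composite elements near genes for amino acid synthesis, uptake and tRNA charging, and among its targets are genes that limit the response. Secretory epithelium such as that of the prostate makes protein for export at a high rate.

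Total counts ran from 16233392 to 24017791 per library. Srd5a2 itself stood at 3.68, 5.19 and 2.37 CPM (counts scaled to a common library total) in Het, 0.934, 0.512 and 1.15 CPM in KO, and 2.30, 5.504 and 8.81 CPM in WT, so that all KO libraries were below all others. The KO against WT difference was -2.67 on the log2 scale (SE 0.62), with an edgeR adjusted p of 0.9996. The luminal keratin Krt8 was at 428 to 549 CPM and Pbsn, the prostate secretory protein probasin, at 2508 to 13056 CPM in all 9 libraries. Sbp, a ventral prostate secretory gene, was at 0.994 to 16.0 CPM in WT libraries 1 and 3 and Het library 2, and at 34372 CPM or more in the other 6. The 8 seminal vesicle markers summed to 6593 to 359170 CPM in Het, 96152 to 193598 CPM in KO and 31140 to 220967 CPM in WT. In bulk tissue, fewer cells of a type and less RNA per cell cannot be told apart.

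Per gene length, Atf4 was the most abundant of the 10, at a mean of 121 ± 24.2 FPKM over the 9 libraries (SD, n = 9). Phgdh, the first enzyme of serine synthesis, followed at 103 ± 23.3 FPKM, and its spread overlapped that of Atf4. Asns, asparagine synthetase, stood at 54.0 ± 16.6 FPKM. Atf5, a bZIP factor related to ATF4, had 29.2 ± 9.67 FPKM, and Psat1, the second enzyme of serine synthesis, 22.5 ± 7.66 FPKM, neighbours that did not differ beyond their spread. Gtpbp2, a GTPase that helps to rescue stalled ribosomes, had 11.8 ± 2.89 FPKM and Chac1, which degrades glutathione, 11.7 ± 7.601 FPKM. Sesn2, an inhibitor of mTORC1 signalling, had 7.06 ± 1.59 FPKM and Trib3, a pseudokinase that restrains ATF4, 4.12 ± 1.22 FPKM. Slc7a11, the cystine-glutamate exchanger subunit, was barely present at 0.186 ± 0.0826 FPKM, from 6 to 78 reads per library. All 10 passed the filter on low counts. Across libraries the highest CPM was 14.6 times the lowest for Chac1 and 11.6 times for Slc7a11, and 1.85 to 2.72 times for the other 8.

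Promoter stretches are shown because the composite element of C/EBP and ATF factors is the sequence feature by which such targets are known. Its core letters, TGATGNAA, were searched on both strands in the RefSeq promoter windows (GRCm38.p6), which run from 250 bases before to 50 after each annotated start. Of the 10 genes, 4 held a match (4 of their 12 windows, 33.3%). So did 13 of the 46 other pathway genes with a window (13 of their 56 windows, 23.2%). Of all 32851 windows, 3.97% held a match. Positions below are counted from the RefSeq start of each window. The gene coordinates deposited with the counts start Asns at 7693254 and Trib3 at 152344032. By those starts the Asns match lies inside the gene and the Trib3 match before it. Matches are in capitals, as read 5′ to 3′ on the strand of the gene, where TTNCATCA is the same core on the opposite strand.
Asns, chr6:7693210-7693258, minus strand, 23 bases before the start: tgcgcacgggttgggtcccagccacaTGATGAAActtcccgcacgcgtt
Chac1, chr2:119351023-119351082, plus strand, 193 bases before the start: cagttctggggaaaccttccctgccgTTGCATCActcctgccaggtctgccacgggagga
Slc7a11, chr3:50443627-50443705, minus strand, 66 and 47 bases before the start: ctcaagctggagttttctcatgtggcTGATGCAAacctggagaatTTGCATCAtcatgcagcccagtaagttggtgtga
Trib3, chr2:152344028-152344057, minus strand, match from base 15 after the start: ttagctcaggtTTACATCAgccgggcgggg
Gtpbp2, chr17:46160782-46161031, plus strand, no match: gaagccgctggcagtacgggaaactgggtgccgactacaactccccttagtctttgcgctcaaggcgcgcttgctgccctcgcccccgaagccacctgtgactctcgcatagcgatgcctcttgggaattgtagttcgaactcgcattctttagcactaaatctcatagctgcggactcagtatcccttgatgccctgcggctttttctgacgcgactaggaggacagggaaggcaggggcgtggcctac
The Gtpbp2 stretch is printed because that gene has the smallest error of the 10. The absence of these letters from its window, as from those of Atf4, Atf5, Sesn2, Psat1 and Phgdh, says nothing of binding elsewhere.

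Gtpbp2 (ENSMUSG00000023952, chromosome 17, 46161032 to 46169370, plus strand) was at 43.5, 50.4 and 39.8 CPM in Het, 68.4, 66.9 and 64.0 CPM in KO, and 84.4, 73.3 and 82.7 CPM in WT. The 3 genotypes did not overlap, with Het lowest, KO between and WT highest. The log2 fold change was -0.85 (SE 0.14) in Het against WT, a level 44.4% lower. It was -0.27 (SE 0.14, 95% interval -0.58 to 0.03) in KO against WT and 0.58 (SE 0.14, interval 0.27 to 0.88) in KO against Het, with edgeR adjusted p of 0.9996 and 0.640. Neither passed. Both comparisons share libraries with the one in which the gene was noticed.

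Of the transcription factors, Atf4 (chromosome 15, 80255184 to 80257541) was at 245, 303 and 231 CPM in Het, 288, 269 and 222 CPM in KO, and 412, 343 and 312 CPM in WT. All Het and all KO libraries lay below all WT libraries, while Het and KO overlapped. The log2 fold changes were -0.45 (SE 0.17) in Het against WT and -0.45 (SE 0.17, 95% interval -0.84 to -0.07) in KO against WT, with an edgeR adjusted p of 0.9996 in the KO comparison. KO against Het was 0.00 (SE 0.17, interval -0.38 to 0.38). Atf5 (chromosome 7, 44812256 to 44816658) was at 33.3, 62.0 and 34.8 CPM in Het, 84.2, 56.7 and 46.6 CPM in KO, and 69.7, 56.1 and 90.7 CPM in WT. Its groups overlapped, and 2 of the 3 Het libraries were below every other library. Exons of Nup62 on the other strand share 82 bases with those of Atf5 (4.1%), reads that cannot be told apart without strand.

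Chac1, Trib3 and Sesn2 act downstream of ATF4, on glutathione, on ATF4 itself and on mTORC1. Chac1 (chromosome 2, 119351229 to 119354381) was at 2.81, 10.02 and 10.2 CPM in Het, 12.1, 29.5 and 12.6 CPM in KO, and 41.1, 31.96 and 25.4 CPM in WT. All Het libraries were below all KO and WT libraries, while KO library 2 reached into the WT range. It had the lowest value of the 10 in both comparisons with WT, at -2.10 (SE 0.52) in Het and -0.86 (SE 0.50, interval -1.99 to 0.27) in KO. KO against Het was 1.24 (SE 0.51, interval 0.09 to 2.38), with an edgeR adjusted p of 0.761. Trib3 (chromosome 2, 152337422 to 152344032) was at 7.57, 7.03 and 5.63 CPM in Het, 10.7, 8.08 and 5.70 CPM in KO, and 11.6, 12.96 and 11.1 CPM in WT, where no Het or KO library reached the lowest WT library. Its log2 fold changes were -0.82 (SE 0.30) in Het against WT and -0.55 (SE 0.30, interval -1.21 to 0.11) in KO against WT. Sesn2 (chromosome 4, 132492032 to 132510501) was at 24.1, 32.9 and 17.2 CPM in Het, 17.4, 26.6 and 20.7 CPM in KO, and 27.5, 29.2 and 29.0 CPM in WT. The KO libraries lay below WT, with a log2 fold change of -0.41 (SE 0.25, interval -0.97 to 0.16), and the Het libraries on both sides of WT.

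The enzymes of asparagine and serine synthesis overlapped between genotypes. Asns (chromosome 6, 7675169 to 7693254) was at 151, 140 and 97.96 CPM in Het, 181, 115 and 101 CPM in KO, and 251, 145 and 172 CPM in WT, with log2 fold changes of -0.55 (SE 0.28) in Het against WT and -0.51 (SE 0.28) in KO against WT. Phgdh (chromosome 3, 98313170 to 98339990) was at 312, 169 and 190 CPM in Het, 291, 239 and 216 CPM in KO, and 344, 306 and 283 CPM in WT. Psat1 (chromosome 19, 15904678 to 15947337) was at 53.4, 145 and 80.3 CPM in Het, 96.9, 71.6 and 80.0 CPM in KO, and 145, 78.5 and 125 CPM in WT. Groups overlapped for all 3 enzymes in both comparisons with WT. In Het library 1 the serine enzymes parted, with Phgdh at 312 CPM inside the WT range and Psat1 at 53.4 CPM below every other library. Slc7a11 (chromosome 3, 49892526 to 50443614) was at 2.92, 3.54 and 3.09 CPM in Het, 1.59, 1.65 and 3.50 CPM in KO, and 3.61, 3.46 and 0.311 CPM in WT, where 6 reads in WT library 3 set the spread.

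**Figure D1:**
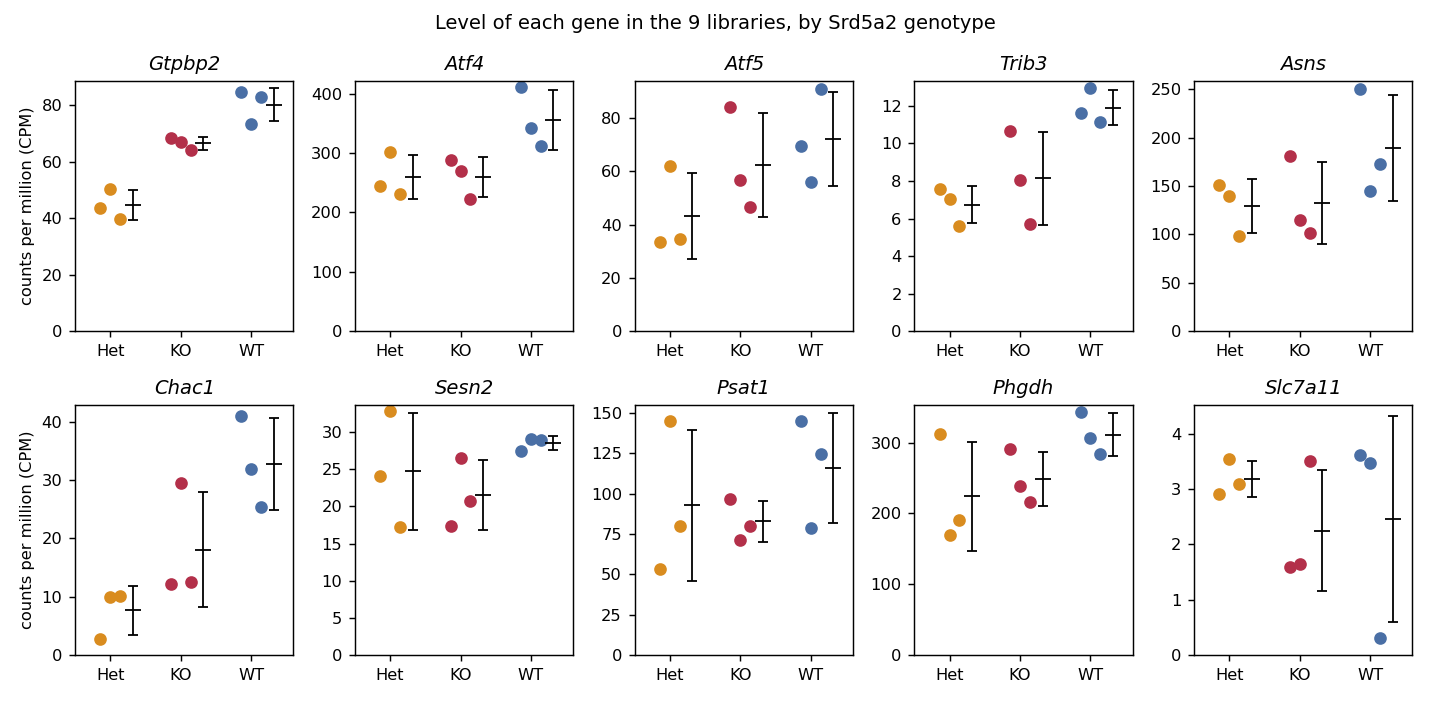
CPM (TMM-scaled, linear axis from 0) of the 10 genes in each library, as points by genotype; the bar beside each group is its mean ± SD (n = 3). Gtpbp2 separates the 3 genotypes, Atf4 and Trib3 lie below WT in every Het and KO library, and the Psat1 and Slc7a11 groups overlap.

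As a list, 9 of the 10 genes had a negative log2 fold change in Het against WT (median -0.51) and 10 of 10 in KO against WT (median -0.43), where 50% and 49.4% of all 16836 tested genes were negative. Without WT library 1 the KO against WT median was -0.28 and 9 of 10 were negative. In KO against Het 3 of 10 were negative (median 0.09), with 48% of all genes. Genotypes did not overlap for 4 of the 10 in Het against WT (Gtpbp2, Chac1, Trib3 and Atf4, all lower), and 8.59% of all genes were lower without overlap. In KO against WT they did not overlap for 4 (Atf4, Gtpbp2, Trib3 and Sesn2, all lower), with 6.04% of all genes. In KO against Het they did not overlap for 2, Gtpbp2 and Chac1, both higher, with 7.8% of all genes. The 2 comparisons with WT share the 3 WT libraries. Averaged as a log2 difference from the WT mean, the 10 genes stood at -0.74, -0.32 and -0.73 in Het, -0.29, -0.35 and -0.53 in KO, and 0.26, -0.02 and -0.23 in WT, so all 6 Het and KO libraries were below all 3 WT libraries. The value of WT library 3 rests in part on the 6 reads of Slc7a11.

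No member passed in any comparison. EdgeR called 0 of 10 members and 0% of all genes in each of the 3. At an unadjusted p under 0.05 were 5 members in Het against WT, all lower, beside 5.61% of all genes, a count from which nothing is read because that comparison chose the list. In KO against WT it was 1, Atf4, lower, beside 1.37% of all genes, and in KO against Het 2, Gtpbp2 and Chac1, higher, beside 4.42%. DESeq2 called Gtpbp2 and Chac1 in Het against WT (1.22% of all genes) and no member in KO against WT (0.0832%) or KO against Het (1%). Gtpbp2 was also called in Het against WT by voom with library quality weights, which called Phgdh too (4.15% of all genes). EdgeR called Gtpbp2 there without Het library 1 (1.47% of all genes) and with a seminal vesicle score as covariate (1.48%). Gtpbp2 was thus called in 4 of 21 alternatives and not in the main fit. These calls fall in the comparison by which Gtpbp2 was chosen, so nothing is read from them.

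**Figure D2:**
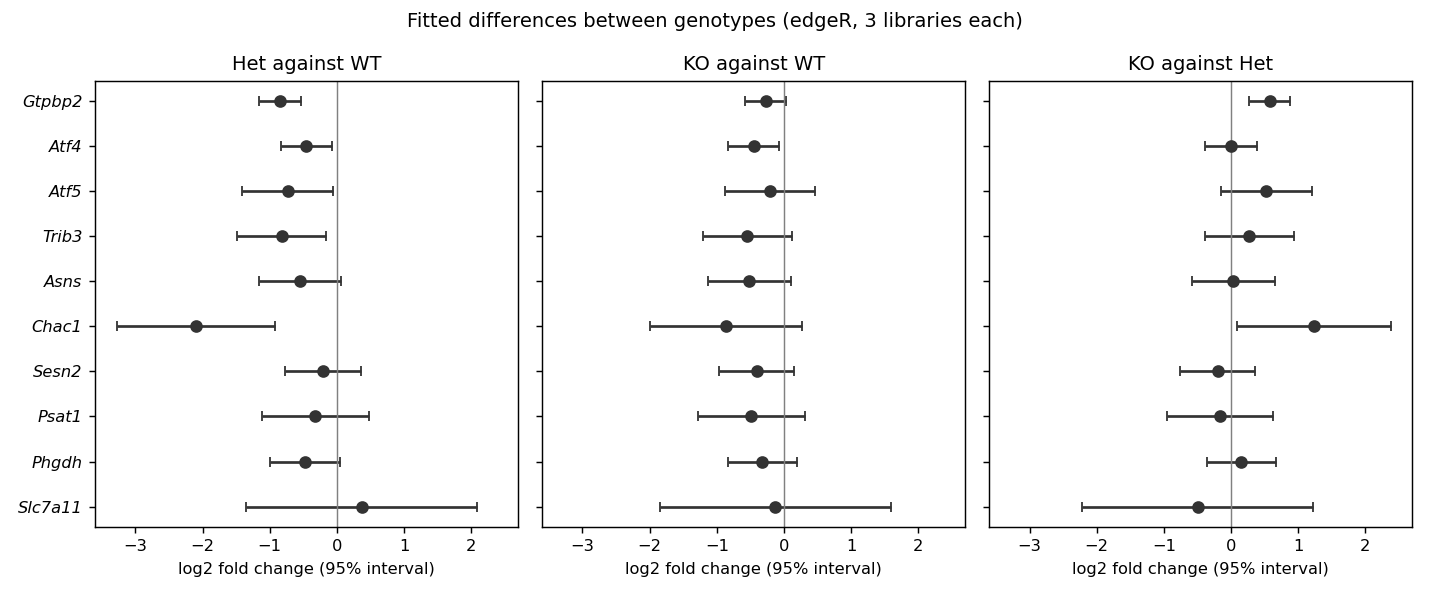
EdgeR log2 fold changes of the 10 genes with 95% intervals for Het against WT, KO against WT and KO against Het (3 libraries per genotype); values left of 0 are lower in the genotype named first. Intervals for Gtpbp2 are the narrowest, and those for Slc7a11 span more than 3 log2 units.

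**Figure D3:**
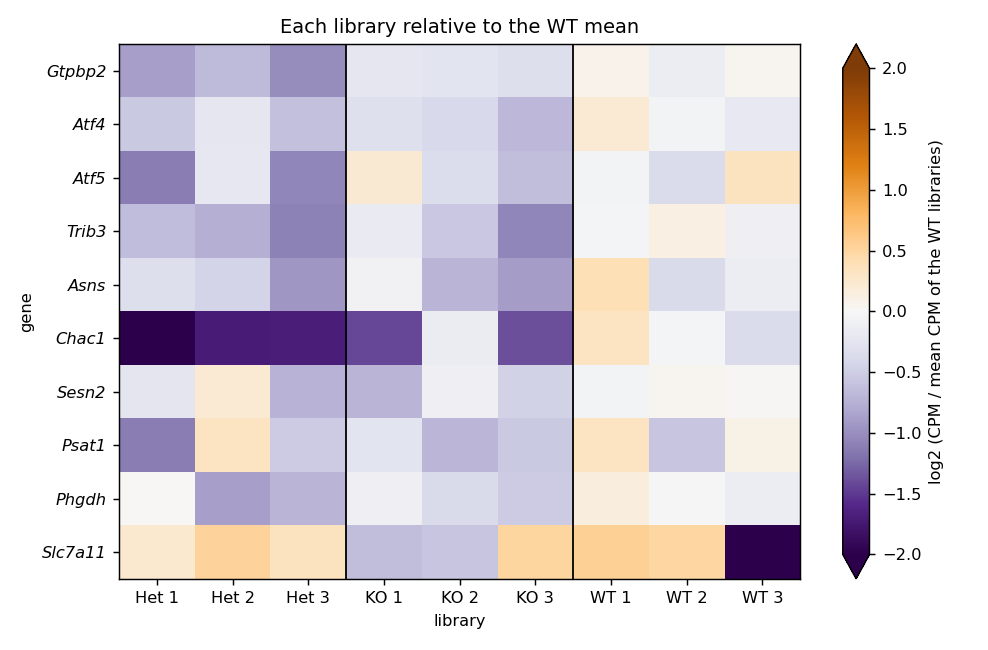
Each library's CPM as a log2 ratio to the mean of the WT libraries, 1 row per gene and 1 column per library, with purple lower and orange higher; colours end at 2 log2 units in either direction. Chac1 is darkest in the Het libraries, and the dark Slc7a11 cell of WT library 3 rests on 6 reads.

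The other 59 genes of the pathway, grouped by role, are given next, and 57 of them were tested. EdgeR called none in the 3 comparisons. In Het against WT 37 of 57 were negative (median -0.15), and DESeq2 called Gpt2 and Ddit3, both lower, beside 1.22% of all genes. At an unadjusted p under 0.05, 11 of the 57 were lower, beside 5.61% of all genes, and 2 were higher, beside 3.43%. In KO against WT 42 of 57 were negative (median -0.24), and DESeq2 called Ddit3, beside 0.0832% of all genes. At that p 5 were lower, beside 1.37% of all genes, and 0 higher, beside 2.2%. In KO against Het 29 of 57 were negative (median -0.01), and DESeq2 called none, beside 1% of all genes. At that p 2 were lower, beside 1.81% of all genes, and 0 higher, beside 4.42%. Without overlap, 8 of the 57 were lower in Het against WT, beside 8.59% of all genes, and 1 was higher. In KO against WT 5 were lower without overlap, beside 6.04% of all genes, and 1 was higher. In KO against Het 1 was higher without overlap, beside 7.8% of all genes, and 3 were lower. The share of all genes that were higher against WT, or lower in KO against Het, without overlap is not given. Nothing is read from the counts in those directions.

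Ddit3 encodes CHOP, the factor that acts with ATF4 on Chac1 and Trib3. It was at 14.1, 13.8 and 16.2 CPM in Het, 20.3, 16.4 and 12.5 CPM in KO, and 39.8, 56.9 and 28.5 CPM in WT. All 6 Het and KO libraries were below the lowest WT library, with log2 fold changes of -1.51 (SE 0.28) and -1.35 (SE 0.28) against WT. Its exons share 68 bases (4.0%) with those of Mars on the other strand. Cebpg, a C/EBP partner of ATF4, also lay below WT without overlap, at -0.46 (SE 0.17) in Het and -0.42 (SE 0.17) in KO. Of the 7 factors, 4 were negative and 3 positive in Het (median -0.46), and 3 negative and 4 positive in KO (median 0.06). Single factors ran from -1.51 to 1.49 in Het and from -1.35 to 0.65 in KO against WT. Atf3, a stress-induced repressor, was at 17.6, 18.6 and 11.3 CPM in Het, 24.5, 21.7 and 15.2 CPM in KO, and 29.3, 26.5 and 20.4 CPM in WT. Its Het libraries lay below WT, at -0.68 (SE 0.27), and its KO libraries overlapped WT, at -0.31 (SE 0.26).

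Upstream, the 8 genes of eIF2alpha and its regulators (4 kinases, 2 phosphatase subunits, Eif2s1 and Gcn1l1, a GCN2 partner) had medians of -0.03 in Het and -0.12 in KO against WT. Single genes ran from -0.27 to 0.27 in Het and from -0.46 to 0.21 in KO. Of these, Eif2s1, the phosphorylated subunit, was at -0.20 (SE 0.16) and Ppp1r15b, a phosphatase subunit, at 0.27 (SE 0.25) in Het. Eif2ak1, the haem-regulated kinase, was at -0.24 (SE 0.13), below WT without overlap, and Eif2ak3, which encodes PERK, at -0.28 (SE 0.16) in KO. Against Het, Eif2ak3 in KO was at -0.45 (SE 0.16), with 49.0, 45.9 and 61.6 CPM in KO and 69.5, 69.0 and 74.8 CPM in Het, groups that did not overlap.

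The 13 genes of tRNA charging and export were negative in 10 cases in Het (median -0.26) and in 13 of 13 in KO (median -0.26). Cars, the cysteinyl-tRNA synthetase, was at -0.58 (SE 0.21) in Het and -0.53 (SE 0.21) in KO, and Tars, for threonine, at -0.44 (SE 0.17) in Het. Gars, for glycine, was at -0.54 (SE 0.22) in KO. The 8 amino acid transporters were negative in 7 cases in each comparison with WT. Slc1a4, a carrier of serine and alanine, was at -0.75 (SE 0.26) in Het and -0.55 (SE 0.26) in KO. The exception was the glycine transporter gene Slc6a9, at 24.8, 22.2 and 16.0 CPM in Het, 16.9, 14.8 and 19.5 CPM in KO, and 13.02, 12.0 and 12.6 CPM in WT. Every Het and KO library lay above WT, at 0.74 (SE 0.22) and 0.44 (SE 0.22).

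Among 6 serine and one-carbon enzymes, 4 were negative in Het and 5 in KO. Aldh1l2, a mitochondrial folate enzyme, was at -1.02 (SE 0.63) in Het and -1.34 (SE 0.63) in KO. Aldh1l2 was at 4.11, 11.4 and 3.59 CPM in Het, 4.45, 3.13 and 7.64 CPM in KO, and 23.1, 5.19 and 10.4 CPM in WT. Its groups overlapped, and WT library 1 was the highest. Mthfd2, also mitochondrial, was at -0.39 (SE 0.32) in Het, and its relative Mthfd1l at -0.70 (SE 0.48) in KO. Mthfd1l was at 8.68, 6.31 and 7.90 CPM in KO and 20.0, 5.55 and 11.8 CPM in WT, groups that overlapped. Of 6 other enzymes tested, 1 was negative in Het (median 0.12) and 5 in KO (median -0.25). Gpt2, which makes alanine from pyruvate, was at 208, 191 and 146 CPM in Het, 291, 218 and 181 CPM in KO, and 500, 289 and 306 CPM in WT. All Het libraries were below WT, at -1.01 (SE 0.26), and KO library 1 reached the WT range, at -0.67 (SE 0.26). Cbs, of transsulfuration, was at 0.44 (SE 0.28) in Het, and Aldh18a1, of proline synthesis, at -0.32 (SE 0.28) in KO. Of 9 growth brakes and secreted outputs, 6 were negative in Het (median -0.06) and 4 in KO (median 0.05). The secreted Gdf15 was at 12.1, 3.54 and 7.12 CPM in Het, 17.9, 12.7 and 6.43 CPM in KO, and 31.2, 26.2 and 14.6 CPM in WT, at -1.66 (SE 0.51) in Het and -0.96 (SE 0.50) in KO. Eif4ebp1, a brake on translation, was at 0.90 (SE 0.33) in Het. Gtpbp1, the relative of Gtpbp2, was at -0.34 (SE 0.16) in KO, below WT without overlap.

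**Figure D4:**
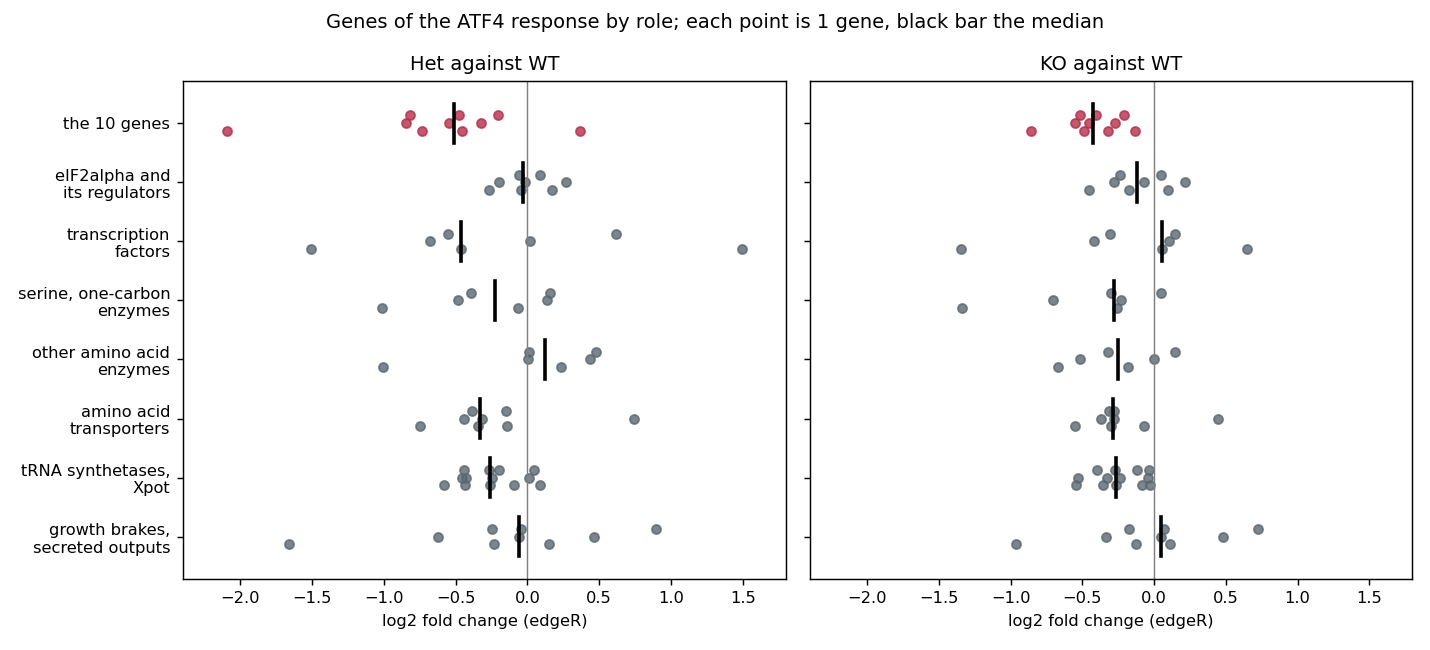
EdgeR log2 fold changes of single genes (points) by role, with the median of each role as a black bar, for Het against WT and KO against WT. The 10 genes have medians of -0.51 and -0.43, the tRNA charging genes -0.26 and -0.26, and eIF2alpha with its regulators -0.03 and -0.12. Medians are -0.46 and 0.06 for transcription factors, 0.12 and -0.25 for other amino acid enzymes, and -0.06 and 0.05 for growth brakes. For amino acid transporters they are -0.33 and -0.29, and for serine and one-carbon enzymes -0.23 and -0.28.

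Markers of other cells differed between genotypes in some lists and overlapped in others. The 5 endothelial markers summed to 17.7 to 30.8 CPM in Het, 48.6 to 109 CPM in KO and 43.4 to 79.5 CPM in WT. The 5 macrophage markers summed to 12.7 to 27.8 CPM in Het, 30.8 to 37.4 CPM in KO and 35.6 to 43.1 CPM in WT. All 5 of each list had a lower mean in Het than in WT, and none was at 0 in any library. In KO against WT all 5 endothelial means were higher and all 5 macrophage means lower. The 6 fibroblast markers summed to 356 to 619 CPM in Het, 856 to 1026 CPM in KO and 450 to 933 CPM in WT. KO lay above Het without overlap, and WT overlapped both. All 6 fibroblast means were lower in Het and higher in KO than in WT. Smooth muscle markers overlapped in all 3 genotypes, at 1063 to 6607 CPM in Het, 3781 to 5223 CPM in KO and 2730 to 5513 CPM in WT. The 4 basal epithelial markers summed to 133 to 342 CPM in Het, 349 to 576 CPM in KO and 179 to 392 CPM in WT. Here too KO lay above Het and WT overlapped both, with 3 of 4 means lower in Het and 3 of 4 higher in KO than in WT. Mast cell markers summed to 0.757 to 44.3 CPM in Het, 17.7 to 22.3 CPM in KO and 17.0 to 22.6 CPM in WT, with up to 4 of the 5 at 0 in a Het library. The 44.3 CPM of Het library 2 came from Kit alone, with Cpa3, Tpsb2, Cma1 and Mcpt4 at 0. The 5 immediate early and heat shock genes summed to 70.8 to 151 CPM in Het, 109 to 144 CPM in KO and 130 to 392 CPM in WT, ranges that overlap, with 3 of 5 means lower than WT in both. Their part in the lower values of the ATF4 genes was not tested. The 12 skeletal muscle markers summed to 144 to 671 CPM in Het, 768 to 5457 CPM in KO and 343 to 1352 CPM in WT, with up to 4 of the 12 at 0 in a library, and with their score as a covariate 9 of the 10 genes stayed negative in KO against WT and Slc7a11 was at 2.43. Removing WT libraries 1 and 3 and Het library 2, which were low in Sbp, left WT with 1 library, whose spread has to be taken from the other genotypes, so the values that follow set Het and KO against WT library 2 alone. Gtpbp2 was then at -0.82 in Het against WT and -0.14 in KO against WT. Atf4 was at -0.53 in Het and -0.40 in KO against WT, and Chac1 at -2.31 in Het and -0.82 in KO. Atf5 and Psat1 turned positive in KO against WT there, at 0.16 and 0.08.

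Over the 9 libraries, the 5 genes most like Gtpbp2 of 12711 compared were Cox17, a copper chaperone, Emg1, which acts in ribosome assembly, E130309D02Rik, Emcn, an endothelial surface protein, and Alox12, a lipoxygenase. Their Pearson r with Gtpbp2 on log2 CPM ran from 0.93 to 0.94 and Spearman rho from 0.83 to 0.95, where the median r of all genes was 0.07. These are descriptions over libraries that share the difference between genotypes. About the genotype means r ran from -0.19 for E130309D02Rik to 0.87 for Alox12. Of the other 9 ATF4 genes, Chac1 (r = 0.82, rank 187) and Atf5 (0.81, rank 214) came closest to Gtpbp2, and Slc7a11 was the one with a negative r (-0.41). About the genotype means Atf5 kept 0.80 and Chac1 had 0.13.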

How the data were processed

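Prostate RNA from 9 libraries, 3 each of Srd5a2 Het, KO and WT mice, was sequenced after polyA enrichment. The authors deposited raw read counts per gene, which were used as they stand, and FPKM values per library, which are per length and were used only to set levels of different genes side by side. The deposited FPKM values imply library totals that stand in a constant ratio, 0.995, to RLE size factors times the mean total. Coordinates are on GRCm38 (mm10), the build named per the submitters' processing notes. The sources used here do not give the programs that aligned and counted the reads, or whether strand was used.

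Counts of all 9 libraries entered 1 edgeR 4.0.16 quasi-likelihood fit (R 4.3.3; TMM factors, filterByExpr, robust, genotype as the only factor), with Benjamini-Hochberg adjustment over all 16836 genes tested and a call at an adjusted p under 0.05. CPM uses TMM-scaled totals. Each SE was taken as |log2 fold change| divided by √F. Intervals cover 95%. DESeq2 1.42.0 and limma 3.58.1 voom were alternatives, beside other scalings and filters, each library left out in turn, a fit of the 2 genotypes alone, the removal of 3 libraries low in Sbp, and 2 marker scores as covariates. The members and lists were chosen with earlier results of these data known. Named beyond the members were, for each role, the 2 genes with the smallest p in Het against WT and in KO against WT, Ddit3, Srd5a2, and the 5 genes most like Gtpbp2. Genes named outside this rule, Eif2ak3 in KO against Het, Atf3, Nupr1, Yars, Nfe2l2 and single marker genes, were chosen after their values were seen. Genotypes come from the library names, and library numbers follow accession order.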

Additional observations from a re-analysis of the deposited data

How the results depend on the processing

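Over 21 alternatives, 208 of 210 values of the 10 genes kept their direction in Het against WT, 201 of 210 in KO against WT and 189 of 210 in KO against Het. The median of the 10 genes ran from -0.73 to -0.37 in Het against WT and from -0.51 to -0.28 in KO against WT, with the value nearest 0 in both without WT library 1. In Het against WT, where 0 genes were called, DESeq2 called 205 genes, 2 of the 10 (Gtpbp2 and Chac1) and 2 other pathway genes. Voom with library quality weights called 699 genes, 2 of the 10 (Gtpbp2 and Phgdh) and 4 other pathway genes (Gpt2, Yars, Ddit3 and Atf3). The seminal vesicle score as a covariate gave 250, with 1 of the 10 (Gtpbp2) and 2 other pathway genes (Ddit3 and Gdf15), and the removal of the 3 libraries low in Sbp gave 1. Leaving out single libraries gave 0 to 258 genes, 0 to 1 of the 10 and 0 to 1 pathway genes. The 258, with Gtpbp2 and Nfe2l2, came without Het library 1. In KO against WT DESeq2 called 14 genes and 1 pathway gene (Ddit3), the 2 genotypes alone gave 1, and single libraries left out gave 0 to 1. In KO against Het DESeq2 called 169 genes, the seminal vesicle score 54, all genes with a count 2, the removal of Sbp-low libraries 1, and single libraries left out 0 to 18. The cause was not tested.

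These values changed sign, all on the log2 scale. Atf4 in KO against Het was -0.028 with RLE factors, -0.019 with at least 1 CPM in 3 libraries, -0.016 with the 2 genotypes alone, -0.028 by DESeq2, and -0.077 to 0.114 with single libraries left out. With single libraries left out, KO against Het ran from -0.032 to 0.471 for Phgdh, -0.440 to 0.304 for Psat1, -0.403 to 0.044 for Sesn2 and -0.255 to 0.177 for Asns. The opposite sign came without Het library 2 for Phgdh, Psat1 and Sesn2, and without Het library 3 or KO library 1 for Asns. Without the Sbp-low libraries, which leaves WT with 1 library and Het with 2, KO against Het was -0.0085 for Phgdh, 0.316 for Psat1 and 0.066 for Sesn2, and KO against WT was 0.078 for Psat1 and 0.157 for Atf5, both set by WT library 2 alone. Sesn2 in KO against Het was 0.342 with quality weights. Slc7a11 ran from -0.655 to 0.259 in KO against WT and from -0.148 to 0.765 in Het against WT with single libraries left out, and both lowest values came without WT library 3. In KO against WT Slc7a11 was 2.43 with the muscle score, 0.379 with the seminal vesicle score and 0.350 by voom. It was -0.209 without the Sbp-low libraries in Het against WT, and 2.19 and 0.209 with the muscle and seminal vesicle scores in KO against Het. Likeness of E130309D02Rik to Gtpbp2 was -0.19 about the genotype means. No paired analysis was possible because the library numbers follow accession order and pair no samples. Slc7a11 had low counts, at 6 to 78 reads a library, and the cause of its spread was not tested.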
